A study of Mus musculus with 48 samples.

Results

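The genes described here are the enzymes that make nucleotides, one-carbon folates and polyamines, 35 genes listed by symbol. No measured value enters the rule that picks them, but the list was chosen with earlier results of these data known. They comprise 14 purine genes, 7 pyrimidine genes, 7 deoxynucleotide genes, 3 folate genes and 4 polyamine genes, out of 18193 genes that the array names singly. Of the 35, 32 had a probe set named for that gene alone, and all 32 passed the filter on low signals. Impdh2, Amd1 and Sms were not analysed here, because the probe sets used carry no single symbol for them.

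Expression was measured on 48 Affymetrix MOE430_2 arrays of 32D-BCR/ABL cells, a mouse myeloid progenitor line that expresses the BCR/ABL oncoprotein. MigRI, a retroviral vector, was present in all lines. In one line it was empty (vector), and in the others it held C/EBPα joined to an estrogen receptor domain (ER), so that 4-hydroxytamoxifen (4-HT) activates the fusion. The fusions were wild type (WT), K298E, labelled as deficient in DNA binding, and Δ(177-191), labelled as deficient in CDK2/CDK4 interaction. The 4 lines were each taken at 0, 6, 9 and 12 h of 4-HT, with 3 arrays per line and time, 16 groups in all. The medium was IMDM with heat-inactivated fetal bovine serum. The labels give 1 transduced line per construct, no vehicle control and no culture left untreated at the later times. They mention triplicates in one place and separate experiments in another, so p-values here measure only the spread between these arrays. The comparisons ask how the synthesis enzymes changed after 4-HT in each line, and how those changes differed from the vector cells, which saw the same drug and medium.

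Purine nucleotides are built atom by atom on a ribose phosphate, pyrimidines are built as a ring that is then joined to ribose phosphate, and both can also be salvaged from free bases. Ribonucleotide reductase turns ribonucleotides into deoxynucleotides, and thymidylate synthesis adds a methyl group that comes from folate. Folate also donates carbon to the purine ring. Polyamines are made from ornithine by Odc1 and from there by Srm and Sms. Dividing blood progenitors use all of these routes, and many of the enzymes are textbook targets of MYC or of E2F factors.

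Array medians ran from a signal of 11 to 19, and the ratio of 3' to 5' Gapdh control probe sets between 0.715 and 0.880. The Δ(177-191) arrays stood apart from the other lines on the first principal component, at 33.6 to 62.6 against -28.7 to -5.00. Esr1, part of which the fusions carry, read 5 to 29 in vector cells, 728 to 1599 in K298E, 1927 to 2607 in WT and 2787 to 4472 in Δ(177-191) cells. The fusion lines are thus set apart from vector cells as labelled, and they do not overlap with each other; the part of this difference in the results was not tested. Of 12 markers of myeloid progenitors 10 had group means above 100 in each line, whereas Kit and Cd34 were near the floor, at average signals of 8.88 and 3.54. Over each line's arrays, the summed signal of the 4 erythroid markers measured lay between 24 and 89, that of the 8 stromal markers between 55 and 126 and that of the 6 lymphoid markers between 21 and 131. The lymphoid gene Cd3d rose in Δ(177-191) cells, from signals of 3, 3 and 2 at 0 h to 59, 39 and 81 at 12 h, and its part in the results for that line was not tested. In bulk RNA, fewer cells of a kind and less RNA per cell cannot be told apart.

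By 12 h of 4-HT most of the synthesis enzymes had risen in vector cells and most had risen in WT cells, few had changed in K298E cells, and in Δ(177-191) cells more had fallen than risen. Changes are differences of log2(signal + 3) from the 0 h arrays of the same line, and a member counts as risen or fallen at an adjusted p under 0.05 in limma. At 12 h, 21 of 32 members had risen in vector cells, where 7.69% of all 12800 genes tested had risen. No member had fallen there (9.73% of all genes had), also at an unadjusted p under 0.05 (0 members). With each array centred on its median 14 of the 21 vector calls passed. The Paics call was lost without any vector array at 0 or 12 h but replicate 2 at 12 h (adjusted p = 0.0707 to 0.204). In WT cells 22 members had risen (background 14.7%) and 0 had fallen, also 0 at an unadjusted p under 0.05 (background 16.1%). In K298E cells 2 had risen, Cad and Tk1 (background 1.02%), and 0 had fallen, again 0 at an unadjusted p under 0.05 (background 1.30%). The Δ(177-191) cells had 1 risen member, Adss (background 12.2%), and 13 had fallen (background 18.2%). With each array centred on its median 8 of these 14 calls passed, and those of Adsl, Aprt, Mthfd1, Mthfd1l, Pfas and Shmt1 were lost. With the median over probe sets Prps2 and Rrm2 also passed as risen (0.20 and 0.26, limma adjusted p = 0.0173 and 0.00382). Dtymk, Dut, Gmps and Umps then also passed as fallen, while the Atic call was lost (-0.21, adjusted p = 0.0646). Rrm1 passed as risen with the replicate number as a block (0.21, adjusted p = 0.0355). Without Δ(177-191) replicate 1 at 0 h Ctps and Rrm1 did (adjusted p = 0.019 and 0.0186). The Adsl call was lost with only the arrays of the groups compared (adjusted p = 0.109). It was also lost without Δ(177-191) replicate 3 at 0 h or at 12 h (adjusted p = 0.153 and 0.0811).

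Over the 32 members, the median change at 12 h was 0.41 for vector cells, 0.49 for WT, 0.10 for K298E and -0.22 for Δ(177-191). The medians of all genes tested lay between -0.07 and -0.01 in the same comparisons. By 6 h, 17 members had risen and 2 had fallen in vector cells, against 8.38% and 12.0% of all genes. The same numbers of members, 17 and 2, had risen and fallen in WT cells (backgrounds 13.5% and 19.0%). In K298E cells 10 had risen and 2 had fallen (backgrounds 5.42% and 7.01%). In Δ(177-191) cells 5 had risen and 5 had fallen (backgrounds 12.2% and 18.3%). The K298E calls at 12 h rest on single arrays: the Tk1 call was lost without any 1 of the 6 K298E arrays at 0 and 12 h (adjusted p = 0.0785 to 0.176), and the Cad call without any of them but replicate 3 at 0 h (adjusted p = 0.0517 to 0.158).

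**Figure D1:**
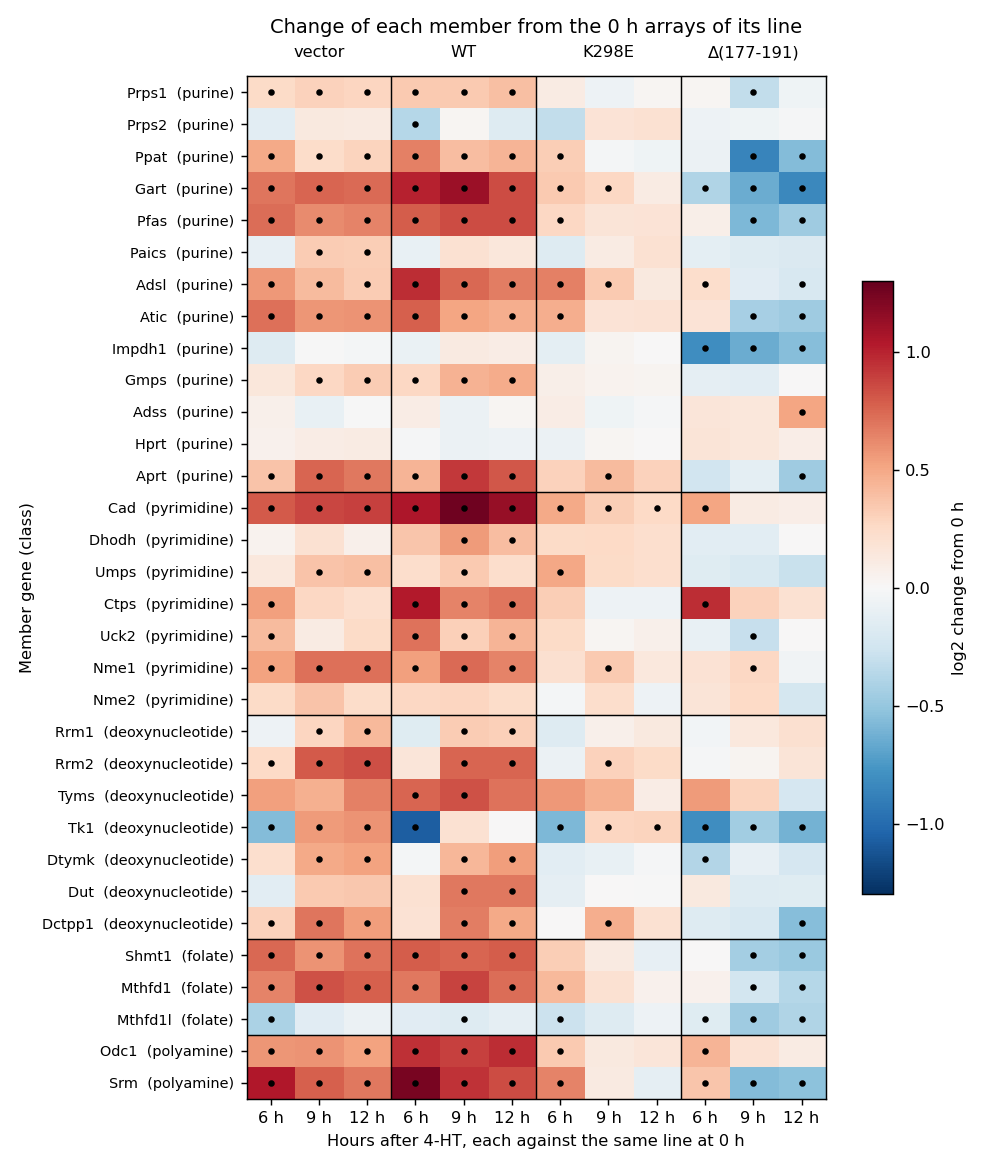
Log2 change of each of the 32 members at 6, 9 and 12 h from the 0 h arrays of its line, as colour from blue (lower) to red (higher), with a black dot where limma's adjusted p was under 0.05. Rows are genes with their class, and the 4 blocks of columns are the lines. Most rows are red in vector and WT cells, pale at 12 h in K298E cells and pale or blue in Δ(177-191) cells, while Tk1 is blue at 6 h in each line.

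By class, the 13 purine members had median changes at 12 h of 0.32 (vector), 0.44 (WT), 0.11 (K298E) and -0.21 (Δ(177-191)). The 3 folate members spread further, with medians of 0.71, 0.73, -0.07 and -0.39 in the same order. The polyamine pair had medians of 0.61, 0.91, 0.02 and -0.21. For the 7 deoxynucleotide members the median in vector cells was 0.22 at 6 h, then 0.54 at 12 h, and in WT cells 0.16, then 0.54. The 7 pyrimidine members had medians of 0.41 and 0.25 in vector cells at these times, and 0.53 and 0.44 in WT cells. Whether the classes differ in timing was not tested.

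**Figure D2:**
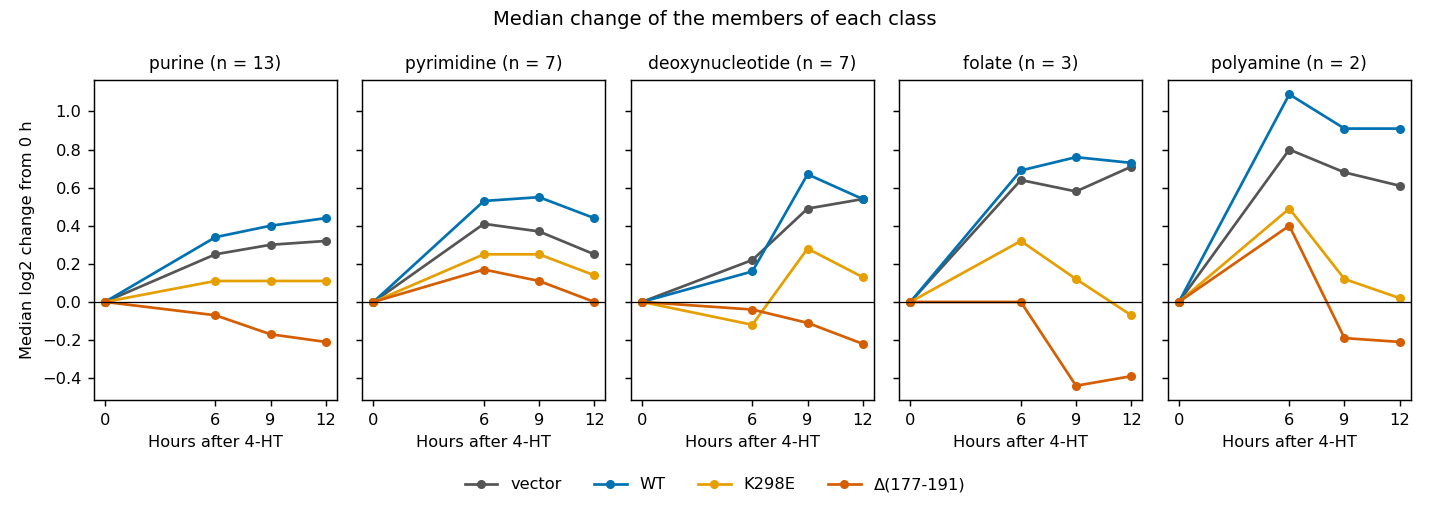
Median log2 change of the members of each class from 0 h (vertical axis) against hours after 4-HT (horizontal axis), with 1 coloured line per cell line. The Δ(177-191) medians lie lowest at 12 h in every class, and the vector and WT medians of the folate class end at 0.71 and 0.73.

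Subtracting the change in vector cells gives the relative change. The 3 constructs share the vector arrays in it, so their values are given side by side and are not independent. At 12 h, 2 of 32 members were relatively higher in WT cells, Adsl and Odc1 (3.81% of all genes were), and 1 was lower, Tk1 (3.37%). In K298E cells 11 were relatively lower (2.23% of all genes) and 0 were higher, also 0 at an unadjusted p under 0.05 (3.37% of all genes). The Δ(177-191) cells had 23 relatively lower members (12.4% of all genes) and 1 higher, Adss (9.94%). The members' medians were 0.07 (WT), -0.33 (K298E) and -0.61 (Δ(177-191)), beside -0.03, 0.02 and -0.04 for all genes. With each array centred on its own median in place of the deposited scale, 0 of the 3 WT calls, 1 of the 11 K298E calls (Srm) and 13 of the 24 Δ(177-191) calls passed, and the members' medians were 0.24, -0.38 and -0.63. Without vector replicate 2 or WT replicate 2 at 12 h, 1 of the 3 WT calls was left. With quantile normalization 1 member was relatively higher and 1 lower in WT cells. In K298E cells that setting lost Atic and gained Odc1 as lower (limma adjusted p = 0.0625 and 0.0208). In Δ(177-191) cells it lost Dut and gained Nme2 as lower (adjusted p = 0.0603 and 2.09e-04). A fit that left out the Δ(177-191) line, which stands apart, gave the same counts of 3 and 11.

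**Figure D3:**
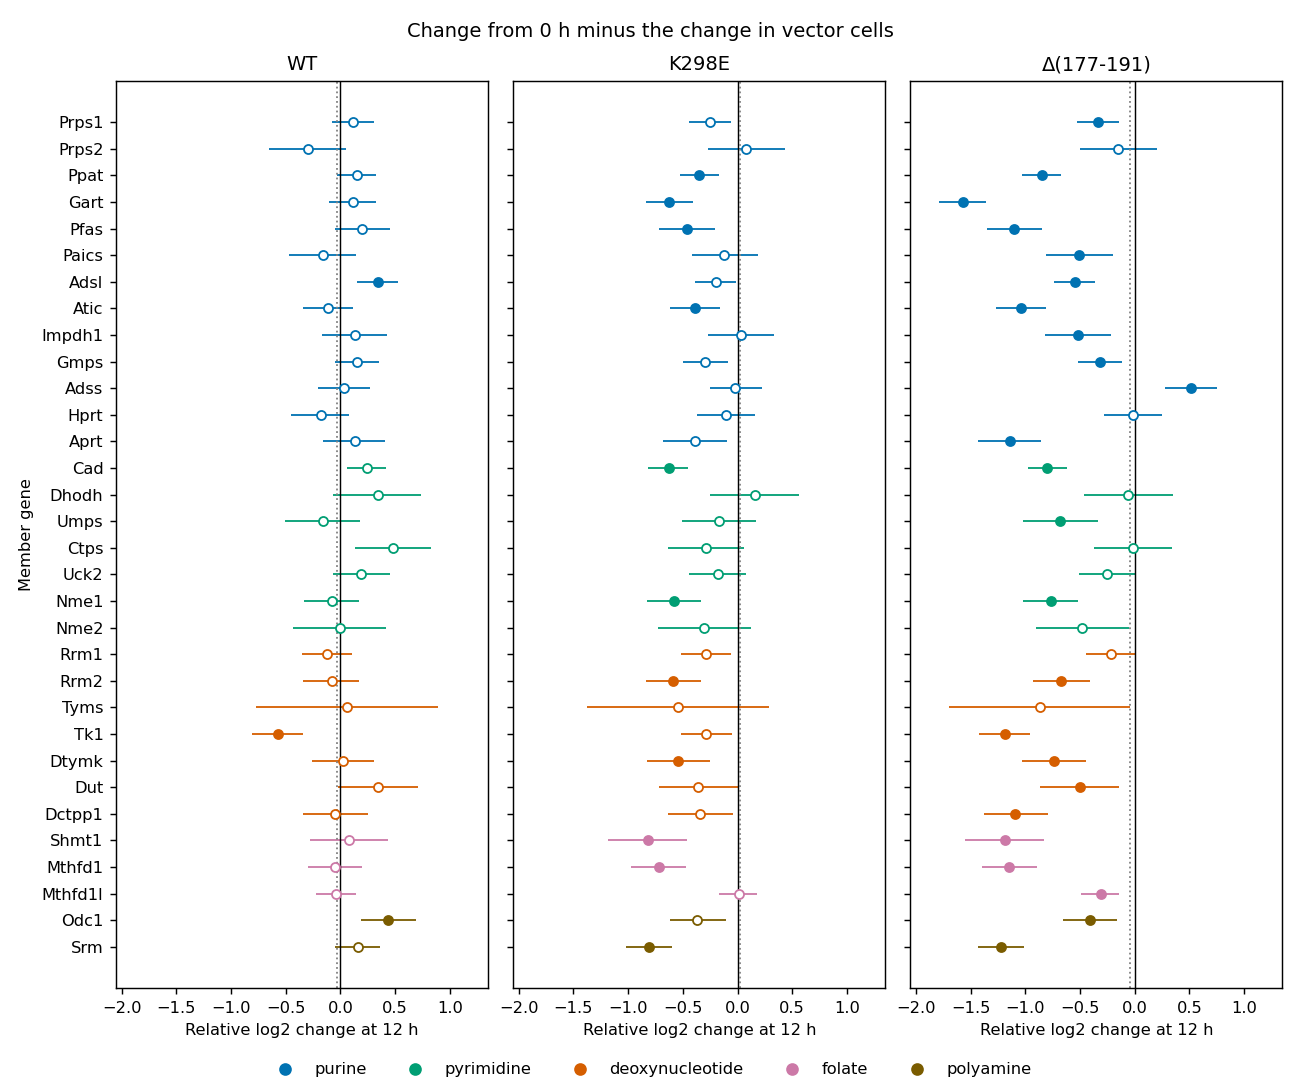
Relative log2 change at 12 h of each member (points) with its 95% confidence interval (bars), in 1 panel per construct. Filled points passed limma's adjusted p of 0.05, colours mark the class, and the dotted line is the median of all genes tested. In the Δ(177-191) panel 23 filled points lie to the left of 0 and 1, Adss, to the right.

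The purine pathway begins with Prps1 and Prps2, which make the activated ribose phosphate, and with Ppat, whose product commits it to purine synthesis. The probe set used for Ppat was 1452831_s_at. In vector cells its signals were 341, 333 and 343 at 0 h, 490, 469 and 478 at 6 h and 419, 407 and 420 at 12 h. WT cells went from 311, 294 and 289 to 427, 383 and 406 at 12 h. Δ(177-191) cells started at 373, 348 and 347, read 184, 199 and 201 at 9 h and ended at 248, 244 and 231. Every 12 h array of that line thus lay below every one of its 0 h arrays, while the vector and WT arrays lay above theirs. The K298E signals were 367, 380 and 343 at 0 h and 352, 326 and 368 at 12 h, and these overlap. The relative change of Ppat was -0.85 ± 0.09 (SE) in Δ(177-191) cells (limma adjusted p = 7.07e-10) and -0.35 ± 0.09 in K298E cells (adjusted p = 0.0137). The K298E call was lost without K298E replicate 2 at 0 h or at 12 h (adjusted p = 0.0509 and 0.0638), and with the median over the Ppat probe sets (-0.32, adjusted p = 0.2).

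Gart, which carries 3 of the enzyme activities of purine ring assembly in 1 protein, had the largest relative fall among the 32 members in Δ(177-191) cells. On probe set 1416283_at its signals in that line were 636, 675 and 594 at 0 h and 360, 349 and 353 at 12 h. In vector cells they were 499, 473 and 462 at 0 h and 812, 790 and 791 at 12 h. In WT cells they went from 453, 473 and 412 to 841, 791 and 790. The groups at 0 and 12 h do not overlap in these 3 lines, and the direction in Δ(177-191) cells is opposite to the others. K298E cells were higher than vector cells from the start, at 624, 649 and 663, and read 731, 635 and 722 at 12 h. The relative change was -1.57 ± 0.11 in Δ(177-191) cells (a fold of 0.336, adjusted p = 3.69e-15) and -0.63 ± 0.11 in K298E cells (adjusted p = 1.03e-04). In WT cells it was 0.12, with a 95% confidence interval from -0.10 to 0.33. A further Gart probe set, 1424435_a_at, gave larger relative changes of -3.07 and -1.67. Probe set 1424436_at gave smaller ones, -1.27 (adjusted p = 9.33e-10) and -0.43, which did not pass in K298E cells (adjusted p = 0.0643), and the dim 1441911_x_at gave -0.36 and -0.25 with no call.

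The next enzymes of ring assembly were relatively lower in Δ(177-191) cells too. Pfas, which adds a glutamine nitrogen, had a relative change of -1.10 ± 0.12 (adjusted p = 3.84e-09), and Atic, which closes the ring, -1.04 ± 0.11 (adjusted p = 1.61e-09). Adsl, which acts in ring assembly and again on the way to AMP, had -0.55 ± 0.09 (adjusted p = 2.01e-05). Paics, which acts between Gart and Adsl, had a relative change of -0.51 ± 0.15 (adjusted p = 0.0137), and its call was lost without vector replicate 3 or Δ(177-191) replicate 1 at 12 h (adjusted p = 0.0533 and 0.0621). Its other bright probe set gave -0.17 (adjusted p = 0.559).

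In K298E cells Pfas had a relative change of -0.46 ± 0.12 (adjusted p = 0.0211) and Atic -0.39 ± 0.11 (adjusted p = 0.0388). The Pfas call was lost without vector replicate 1 at 0 h, vector replicate 1 or 3 at 12 h, or K298E replicate 2 at 0 h or 12 h (adjusted p = 0.0507 to 0.103). The Atic call was lost without vector replicate 2 or 3 at 0 h, vector replicate 1 at 12 h, K298E replicate 2 or 3 at 0 h, or K298E replicate 2 at 12 h (adjusted p = 0.0679 to 0.178). In WT cells Adsl alone of the purine members passed, with 0.34 ± 0.09 (adjusted p = 0.0198). That call was lost without vector replicate 1 at 0 h, vector replicate 2 at 12 h, WT replicate 1 at 0 h or WT replicate 2 at 12 h (adjusted p = 0.0502 to 0.119).

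The branch to AMP and GMP and the salvage enzymes did not move as 1 group. Adss, which starts the step from IMP to AMP, was the one member called as risen in Δ(177-191) cells at 12 h with the settings used. On probe set 1460726_at its signals there were 900, 893 and 976 at 0 h, 1039, 1156 and 915 at 6 h and 1297, 1431 and 1220 at 12 h. In vector cells they were 808, 840 and 816 at 0 h and 838, 860 and 760 at 12 h, which overlap. The relative change was 0.51 ± 0.12 (adjusted p = 0.00101). Impdh1, an enzyme of the GMP branch, had -0.52 ± 0.15 in Δ(177-191) cells (adjusted p = 0.00966), and its own change there was larger at 6 h (-0.81) than at 12 h (-0.55). Gmps, which completes GMP, had -0.32 ± 0.10 (adjusted p = 0.019). The Gmps call was lost without vector replicate 3 at 0 h, vector replicate 1 at 12 h, Δ(177-191) replicate 2 at 0 h or Δ(177-191) replicate 1 at 12 h (adjusted p = 0.0507 to 0.0924), and the median over the Gmps probe sets gave -0.19 (adjusted p = 0.633). Aprt, which salvages adenine, had -1.14 ± 0.14 (adjusted p = 3.70e-08). Hprt, which salvages hypoxanthine and guanine, had -0.02, with a 95% confidence interval from -0.28 to 0.25. Of Prps1 and Prps2, Prps1 was relatively lower in Δ(177-191) cells at -0.34 ± 0.10 (adjusted p = 0.00877), and Prps2 had -0.15 ± 0.17 (adjusted p = 0.696).

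**Figure D4:**
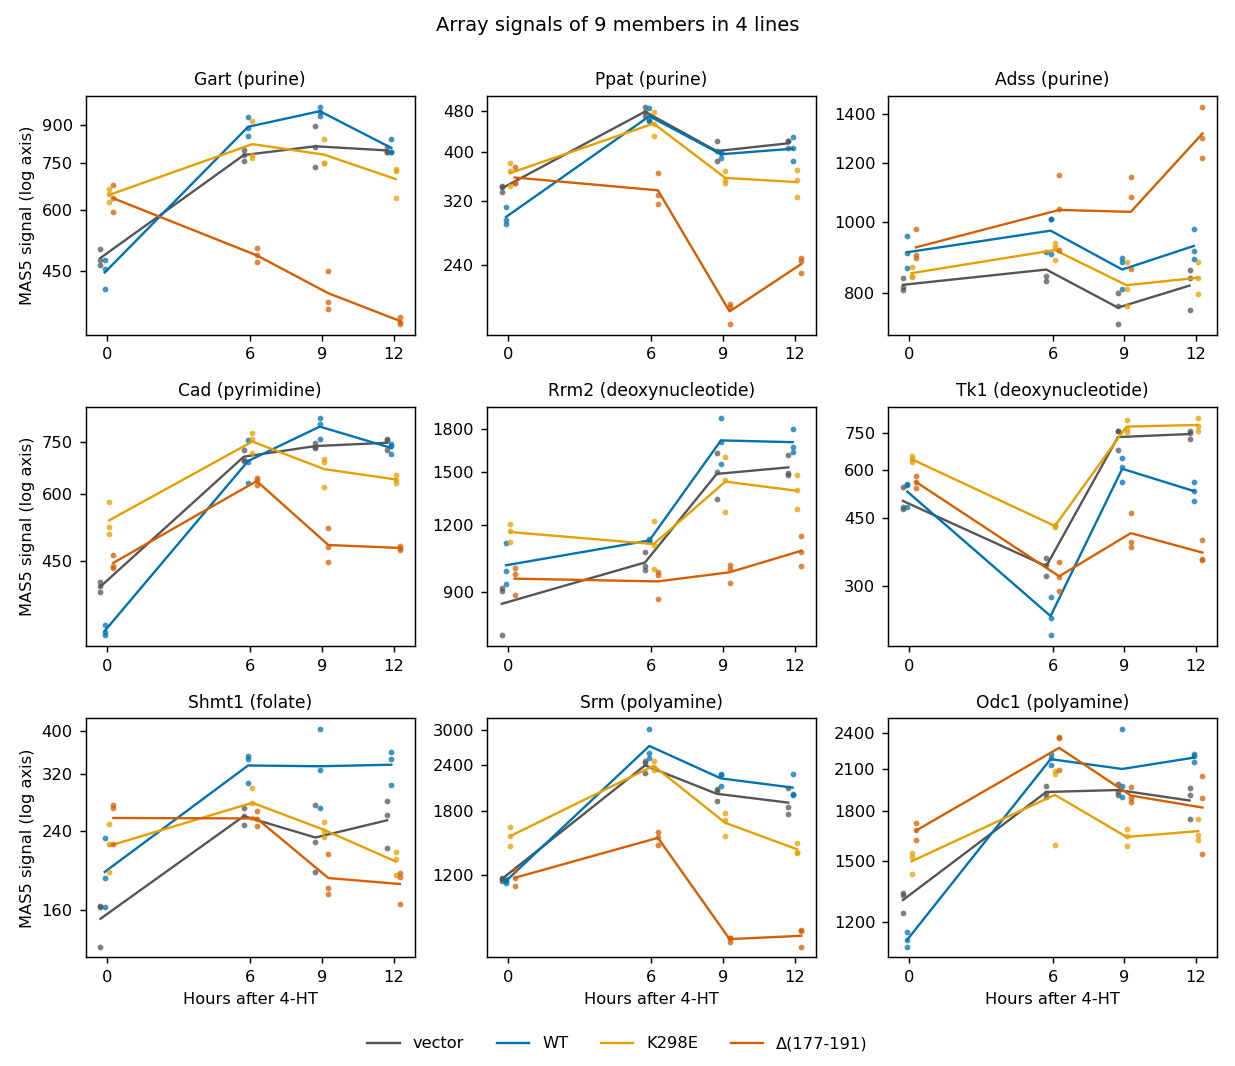
MAS5 signal of 9 members (vertical axis, log scale, a separate range per panel) against hours after 4-HT in the 4 lines. Points are single arrays, shifted sideways by line, and lines join the means of 3 arrays. Gart falls to 349 to 360 in Δ(177-191) cells at 12 h while it stands at 790 to 841 in vector and WT cells, and Tk1 dips at 6 h in each line.

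Pyrimidine synthesis begins with Cad, whose 1 protein carries the first 3 activities, and goes on through Dhodh and Umps to UMP and then through the kinases and Ctps to CTP. Cad was read on probe set 1452829_at. In vector cells its signals were 403, 411 and 393 at 0 h and 758, 726 and 761 at 12 h. In WT cells they were 330, 326 and 341 at 0 h and 714, 737 and 744 at 12 h. K298E cells went from 505, 521 and 580 to 638, 628 and 650. Each of these groups lies above its own 0 h arrays, with a change of 0.26 in K298E cells (adjusted p = 0.0194), the one that single arrays decide. Δ(177-191) cells read 436, 461 and 440 at 0 h, 624, 642 and 637 at 6 h and 472, 475 and 479 at 12 h, a rise at 6 h of 0.51 ± 0.06 (adjusted p = 1.74e-08) of which 0.09 ± 0.06 was left at 12 h (adjusted p = 0.338).

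The relative change of Cad at 12 h was -0.80 ± 0.09 in Δ(177-191) cells (adjusted p = 3.12e-09), -0.63 ± 0.09 in K298E cells (adjusted p = 3.83e-06) and 0.24 ± 0.09 in WT cells (adjusted p = 0.128). A further Cad probe set, 1452830_s_at, gave 0.43 in WT cells (adjusted p = 0.00998). Umps, which makes UMP, was relatively lower in Δ(177-191) cells by -0.68 ± 0.17 (adjusted p = 0.00268). Nme1, a nucleoside diphosphate kinase, had -0.77 ± 0.12 in Δ(177-191) cells (adjusted p = 6.07e-06) and -0.58 ± 0.12 in K298E cells (adjusted p = 0.00229). Another bright Nme1 probe set, 1435277_x_at, gave values of the opposite sign, 0.36 and 0.68, with no call. The median over both gave -0.20 and, with the sign turned, 0.05 (adjusted p = 0.726 and 0.97), so Nme1 is uncertain. Ctps, which makes CTP, rose at 6 h by 1.03 in WT and by 0.96 in Δ(177-191) cells, but its relative change at 12 h passed in none of the 3 constructs (limma adjusted p = 0.119, 0.486 and 0.976 for WT, K298E and Δ(177-191)). The mitochondrial enzyme Dhodh, the salvage kinase Uck2 and the kinase Nme2 had relative changes of -0.06, -0.25 and -0.48 in Δ(177-191) cells, none of which passed (adjusted p = 0.918, 0.223 and 0.127).

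Among the deoxynucleotide enzymes Tk1, the thymidine salvage kinase whose level rises in S phase, was lower at 6 h than at 0 h in each line. Its change at 6 h was -0.56 (vector), -1.07 (WT), -0.58 (K298E) and -0.81 (Δ(177-191)), each past the threshold (adjusted p from 4.08e-14 to 1.48e-06). Its signals in vector cells were 475, 542 and 481 at 0 h, 355, 340 and 318 at 6 h and 761, 725 and 753 at 12 h. In K298E cells they were 654, 642 and 630, then 426, 433 and 430, then 759, 783 and 822. In both lines the 12 h arrays lie above the 0 h arrays, although the K298E change of 0.29 is one that single arrays decide. WT cells read 551, 481 and 553 at 0 h, 281, 247 and 223 at 6 h and 559, 531 and 500 at 12 h, so that the 0 and 12 h arrays overlap. Δ(177-191) cells read 540, 580 and 560, then 291, 346 and 316, then 395, 351 and 353, and stayed below. At 12 h the relative change of Tk1 was -1.19 ± 0.11 in Δ(177-191) cells (adjusted p = 7.44e-11) and -0.57 ± 0.11 in WT cells (adjusted p = 5.87e-04). The K298E value of -0.29 ± 0.11 did not pass (adjusted p = 0.19).

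Rrm2 and Rrm1 are the small and large subunits of ribonucleotide reductase. On Rrm2 probe set 1434437_x_at, vector cells read 750, 917 and 905 at 0 h and 1485, 1492 and 1615 at 12 h. WT cells went from 932, 986 and 1112 to 1804, 1635 and 1672. K298E cells went from 1206, 1170 and 1113 to 1393, 1483 and 1282, and Δ(177-191) cells from 997, 890 and 975 to 1008, 1146 and 1067. The 12 h arrays lie above the 0 h arrays in each line. The changes of 0.84 and 0.76 in vector and WT cells passed (adjusted p = 2.17e-09 and 6.26e-09), and those of 0.25 and 0.17 in K298E and Δ(177-191) cells did not (adjusted p = 0.191 and 0.187). With the median over the Rrm2 probe sets the Δ(177-191) change was 0.26 and passed (limma adjusted p = 0.00382), so that call depends on the probe set. The relative change of Rrm2 was -0.67 ± 0.13 in Δ(177-191) cells (adjusted p = 8.98e-05) and -0.59 ± 0.13 in K298E cells (adjusted p = 0.00263). Rrm1 had -0.22 ± 0.11 and -0.29 ± 0.11 there, and neither passed (adjusted p = 0.229 and 0.174). A further Rrm1 probe set of like brightness, 1415878_at, gave -0.42 in Δ(177-191) cells (adjusted p = 0.0168), and the median over probe sets -0.32 (adjusted p = 0.0166), so the Rrm1 call depends on the probe set.

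Dctpp1, which breaks down surplus dCTP, had a relative change of -1.09 ± 0.15 in Δ(177-191) cells (adjusted p = 1.97e-07). Dtymk, which phosphorylates dTMP, had -0.74 ± 0.14 there (adjusted p = 1.13e-04) and -0.54 ± 0.14 in K298E cells (adjusted p = 0.0178). That K298E call was lost without vector replicate 2 at 0 h or vector replicate 1 or 3 at 12 h (adjusted p = 0.0504 to 0.0629). The other 2 Dtymk probe sets gave -0.22 each there (adjusted p = 0.593 and 0.312), and the median over probe sets -0.26 (adjusted p = 0.323). In Δ(177-191) cells they gave -0.59 and -0.61 (adjusted p = 0.00629 and 2.24e-05). Dut, which keeps uracil out of DNA, had -0.50 ± 0.18 in Δ(177-191) cells (adjusted p = 0.0455). Its call was lost without vector replicate 1 or 2 at 0 h, vector replicate 1 or 3 at 12 h, or Δ(177-191) replicate 1 or 3 at 0 h or at 12 h (adjusted p = 0.0563 to 0.202). A dimmer Dut probe set, 1419269_at, gave -0.92 in Δ(177-191) cells (adjusted p = 1.38e-04). Tyms, the thymidylate synthase, read low on the probe sets named for it alone. A further probe set that it shares with another symbol was not used, so the level of its RNA is uncertain. Its signals were 38, 24 and 22 in vector cells at 0 h and 37, 50 and 47 at 12 h, and 26, 17 and 15 against 18, 23 and 9 in Δ(177-191) cells. WT cells read 23, 24 and 9 and then 31, 27 and 33, and K298E cells 26, 16 and 28 and then 20, 24 and 31. In Δ(177-191) cells Tyms had a relative change of -0.87, with a 95% confidence interval from -1.70 to -0.04, and did not pass (adjusted p = 0.164).

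The folate enzymes held 2 members with relative falls of over 1 on the log2 scale in Δ(177-191) cells. Shmt1, which takes a carbon from serine in the cytosol, read 164, 163 and 133 in vector cells at 0 h and 280, 220 and 260 at 12 h. In WT cells it read 163, 232 and 189 and then 346, 359 and 304. In K298E cells it read 224, 248 and 195 and then 208, 192 and 216, which overlap. In Δ(177-191) cells it read 225, 274 and 270 and then 190, 194 and 165. The arrays of both mutant lines lay above the vector arrays at 0 h and below them at 12 h. The relative change of Shmt1 was -1.19 ± 0.18 in Δ(177-191) cells (adjusted p = 1.44e-06) and -0.82 ± 0.18 in K298E cells (adjusted p = 0.00262). Its other probe sets passed in Δ(177-191) cells, at -1.02, -1.05 and -1.23. In K298E cells they gave -0.55, -0.36 and -0.63, and only the first passed (adjusted p = 0.0146, 0.424 and 0.174). Mthfd1, the cytosolic enzyme that passes folate carbon to purines and thymidylate, had -1.15 ± 0.13 in Δ(177-191) cells (adjusted p = 1.58e-09) and -0.72 ± 0.13 in K298E cells (adjusted p = 1.50e-04). Mthfd1l, its mitochondrial relative, fell at 6 h by 0.41 in vector cells (adjusted p = 3.35e-06), by 0.28 in K298E (adjusted p = 0.00198) and by 0.16 in Δ(177-191) cells (adjusted p = 0.0483). Its 6 h change in WT cells was -0.15 (adjusted p = 0.0843). Its relative change in Δ(177-191) cells at 12 h was -0.31 ± 0.09 (adjusted p = 0.00832). In WT cells the relative change passed for none of the 3 (limma adjusted p = 0.917 to 0.935).

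Odc1, the first and regulated enzyme of polyamine synthesis, rose at 6 h in each line, by 0.57 (vector), 0.95 (WT), 0.34 (K298E) and 0.44 (Δ(177-191)) on the log2 scale (adjusted p from 9.78e-12 to 0.00716). Its signals in WT cells were 1121, 1156 and 1096 at 0 h and 2153, 2202 and 2216 at 12 h. In vector cells they were 1240, 1326 and 1334 and then 1959, 1746 and 1910. In K298E cells they were 1545, 1429 and 1521 and then 1622, 1746 and 1650, and in Δ(177-191) cells 1724, 1620 and 1683 and then 1540, 1888 and 2045. WT cells thus began lowest of the 4 lines, and their 12 h arrays were higher than those of the other 3 lines. The relative change of Odc1 was 0.44 ± 0.12 in WT cells (adjusted p = 0.0246) and -0.41 ± 0.12 in Δ(177-191) cells (adjusted p = 0.0148). The WT call was lost without vector replicate 2 or 3 at 0 h, vector replicate 2 at 12 h, WT replicate 3 at 0 h, or WT replicate 2 or 3 at 12 h (adjusted p = 0.0516 to 0.0906), and the median over the Odc1 probe sets gave 0.49 (adjusted p = 0.308). In WT cells probe set 1427364_a_at gave 0.70 and passed (adjusted p = 0.00933), and 1437711_x_at gave 0.49 and did not (adjusted p = 0.347). The Δ(177-191) call was lost without Δ(177-191) replicate 1 at 12 h (-0.29, adjusted p = 0.0981), and the other 2 Odc1 probe sets gave -0.18 and -0.13 there with no call.

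Srm makes spermidine. Its signals in vector cells were 1179, 1172 and 1152 at 0 h, 2477, 2437 and 2289 at 6 h and 2084, 1763 and 1841 at 12 h. In WT cells they were 1170, 1140 and 1151, then 3020, 2523 and 2605, then 2270, 2004 and 1984. K298E cells read 1538, 1438 and 1626 at 0 h, 2477, 2339 and 2370 at 6 h and 1390, 1377 and 1467 at 12 h. Of the arrays given, those at 6 h were highest in these lines, and the K298E arrays at 12 h overlap those at 0 h. Δ(177-191) cells read 1118, 1175 and 1239, then 1577, 1524 and 1449, and fell to 838, 761 and 846 at 12 h, below each of their 0 h arrays. The relative change of Srm was -1.22 ± 0.10 in Δ(177-191) cells (adjusted p = 2.06e-12), -0.81 ± 0.10 in K298E cells (adjusted p = 4.51e-07) and 0.16 ± 0.10 in WT cells (adjusted p = 0.558).

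Part of the difference between the lines was present before 4-HT. At 0 h, 10 members were higher in K298E than in vector cells (3.01% of all genes were), and 0 were lower (3.45% of all genes), with 1 lower at an unadjusted p under 0.05. They included Gart (0.43 ± 0.08, adjusted p = 1.45e-04), Cad (0.41 ± 0.06, adjusted p = 2.23e-05), Rrm2 (0.44 ± 0.09, adjusted p = 0.00112) and Srm (0.39 ± 0.07, adjusted p = 3.82e-04). With median centring of the arrays 0 of the 10 passed, whereas quantile normalization lost none of them. In WT cells 0 members were higher at 0 h, with 3 higher at an unadjusted p under 0.05 (background 2.91%), and 2 were lower (background 2.80%). These were Cad (-0.27 ± 0.06, adjusted p = 0.00515) and Mthfd1l (-0.25 ± 0.06, adjusted p = 0.0121). The Mthfd1l call was lost without vector replicate 3 or WT replicate 1 or 2 at 0 h (adjusted p = 0.0559 to 0.0943), and neither passed with median centring.

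At 0 h, 7 members were higher in Δ(177-191) than in vector cells (background 13.2%) and 6 lower (background 15.3%), against 1 and 2 with median centring. Quantile normalization lost Dctpp1 and gained Dut, Nme1 and Rrm1 among the lower ones. Shmt1 was higher by 0.73 ± 0.13 (adjusted p = 1.05e-05) and Gart by 0.41 ± 0.08 (adjusted p = 3.76e-05, but 0.0537 with median centring). Hprt, by contrast, was lower at the start: it read 1947, 1883 and 1911 in Δ(177-191) and 2693, 2877 and 2920 in vector cells, a difference of -0.56 ± 0.09 (adjusted p = 5.40e-06). Ctps was lower by -0.57 ± 0.12 (adjusted p = 3.92e-04).

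A relative change mixes the starting level with the later one, so the levels at 12 h were also compared directly. Of 32 members 26 were lower in Δ(177-191) than in vector cells at 12 h (25.4% of all genes were) and 1, Adss, was higher (17.7% of all genes). The largest differences were those of Dctpp1 (-1.37 ± 0.10, adjusted p = 7.05e-15), Tyms (-1.34 ± 0.29, adjusted p = 2.05e-04) and Mthfd1 (-1.32 ± 0.09, adjusted p = 1.32e-16). The Tyms probe set used reads near the floor, and the size of its difference depends on the added constant. In K298E cells 5 members were lower at 12 h (3.83% of all genes), and 0 higher (5.39% of all genes), with 1 higher at an unadjusted p under 0.05. The 5 were Srm (-0.42 ± 0.07, adjusted p = 5.83e-05), Mthfd1 (-0.40 ± 0.09, adjusted p = 0.00166), Ppat, Prps1 and Cad. Without K298E replicate 1 or without replicate 2 at 12 h 3 were called, and the Cad call was also lost without vector replicate 1 or 3 at 12 h (adjusted p = 0.0559 to 0.075). With median centring 1 of the 5 passed, Srm. In WT cells 2 were higher, Adsl and Shmt1 (7.89% of all genes), and 2 lower, Tk1 and Mthfd1l (8.63% of all genes). Without vector replicate 2 at 12 h both higher calls were lost, that of Shmt1 also without WT replicate 1 or 2 at 12 h (adjusted p = 0.0717 to 0.182). With quantile normalization 3 were higher and 5 lower, and with median centring 0 were higher and 1 lower.

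The constructs were also compared with each other over the mean change at 6, 9 and 12 h, which does not use the vector arrays. The mean change of 19 members was higher in WT than in K298E cells (8.42% of all genes) and that of 1, Tk1, was lower (9.09% of all genes). Cad and Srm had differences of 0.79 ± 0.07 and 0.79 ± 0.08 (adjusted p = 4.28e-11 and 1.92e-09), Gart had 0.74 ± 0.09 (adjusted p = 1.68e-08), and Odc1 and Ctps had 0.73 each (adjusted p = 6.93e-07 and 1.96e-04). With the median over the Odc1 probe sets the Odc1 difference was 0.47 and did not pass (limma adjusted p = 0.109). The Tk1 value was -0.29 ± 0.09 (adjusted p = 0.0313) and was lost without WT replicate 1 or 3 or K298E replicate 2 or 3 at 0 h (adjusted p = 0.0642 to 0.108). With median centring 12 of the 20 passed, each of them higher in WT cells.

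Against Δ(177-191) cells, the mean change in WT cells was higher for 23 members (14.3% of all genes) and lower for 0, with 1 lower at an unadjusted p under 0.05 (11.1% of all genes). The differences were 1.61 ± 0.09 for Gart (adjusted p = 5.99e-18), 1.25 ± 0.08 for Srm (adjusted p = 3.53e-15), 1.15 ± 0.10 for Pfas and 1.08 ± 0.14 for Shmt1. Adss had -0.26 ± 0.10, just outside the threshold (adjusted p = 0.0513). It passed as lower in WT cells with array weights and with quantile normalization (-0.29 and -0.27, limma adjusted p = 0.00752 and 0.0226), but not under every alternative. The Odc1 difference was 0.69 ± 0.10. With the median over its probe sets it was 0.46 and did not pass (limma adjusted p = 0.0918).

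Of 91 other genes of these pathways, which cover interconversion, breakdown, transport and regulation, 63 were tested. At 12 h, 9 were relatively higher and 2 lower in WT cells, 8 and 4 in K298E cells and 12 and 13 in Δ(177-191) cells. Of all genes, 3.81% were higher and 3.37% lower in WT, 3.37% and 2.23% in K298E and 9.94% and 12.4% in Δ(177-191) cells. Their median relative changes were 0.04, -0.06 and 0.03. In WT cells Ada, which deaminates adenosine, was relatively higher by 1.77 ± 0.15 (adjusted p = 2.60e-12) and Gda, which deaminates guanine, by 1.08 ± 0.17 (adjusted p = 1.23e-05). Mthfd2, a mitochondrial folate enzyme, was lower by -0.65 ± 0.11 (adjusted p = 2.45e-05) and Mtap, which salvages the by-product of polyamine synthesis, by -0.46 ± 0.10 (adjusted p = 0.00209).

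In K298E cells Nme7, with 1.03 ± 0.18, and Azin2, with a 95% confidence interval from 0.42 to 1.58, had the largest relative rises, and Dctd (-0.61 ± 0.14) and Itpa (-0.56 ± 0.16) the largest falls past the threshold (adjusted p = 1.76e-04, 0.0347, 0.00438 and 0.0264). In Δ(177-191) cells the AMP deaminase Ampd3 had 1.37 ± 0.45 (adjusted p = 0.0275) and Sat1, which acetylates polyamines for export and breakdown, 1.36 ± 0.18 (adjusted p = 9.78e-08). The Ampd3 probe set read low, with a mean signal of 24.4 over all arrays, below the 29.6 of Tyms. Dctd, which makes dUMP from dCMP, had -1.65 ± 0.14 (adjusted p = 1.98e-12) and Slc25a32, the mitochondrial folate carrier, had a 95% confidence interval from -1.38 to -0.61 (adjusted p = 9.52e-05). Sat1 was relatively higher in WT and K298E cells too, by 0.74 and 0.80 (adjusted p = 0.00498 and 0.00333).

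Myc, a known activator of many of the members, read 791, 814 and 953 in vector cells at 0 h and 594, 560 and 609 at 12 h, a change of -0.53 (adjusted p = 3.94e-05). In WT cells it read 1119, 1198 and 1243 and then 1409, 1320 and 1455, and in K298E cells 908, 852 and 840 and then 709, 726 and 703. In Δ(177-191) cells it started highest of the 4 lines, at 1863, 1841 and 1905, and ended at 592, 764 and 665. Its relative change was 0.76 ± 0.13 for WT (adjusted p = 6.17e-05), 0.25 ± 0.13 for K298E (adjusted p = 0.382) and -0.95 ± 0.13 in Δ(177-191) cells (adjusted p = 3.65e-07). Mycn, another gene of the MYC family, had a mean signal of 5383 over all arrays, against 1020 for Myc, and its changes are not given here. E2f1, an S-phase activator, had -0.81 ± 0.19 in Δ(177-191) cells (adjusted p = 0.00169). The E2f1 values of WT and K298E cells are not given here, so this fall is not shown to be particular to Δ(177-191) cells. The replication clamp Pcna had relative changes from -0.21 to -0.20 in the 3 constructs, none of which passed (limma adjusted p = 0.646 to 0.759). The part of Myc, E2f1 or cell division in the members' changes was not tested.

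As a description, the promoters of the members were searched for 3 kinds of motif, in the 250 bases before each annotated start (RefSeq, assembly GRCm38.p6). A start was listed for 29 of the 32 members. The E-box CACGTG, which reads the same on both strands and is bound by MYC with MAX among others, was found in 5 of the 29, that is 17.2%, and in 6.86% of all 27025 genes. The 5 were Atic, Dtymk, Nme1, Paics and Tyms. The following stretches, from RefSeq, lie before the start and outside annotated genes, 5′ to 3′ on the gene's strand, and are shown because they hold this E-box, in capitals.
Atic, chr1:71557096-71557155, plus strand: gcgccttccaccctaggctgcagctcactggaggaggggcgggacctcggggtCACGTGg
Dtymk, chr1:93802069-93802109, minus strand: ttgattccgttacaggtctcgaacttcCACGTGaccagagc
Nme1, chr11:93968273-93968332, minus strand: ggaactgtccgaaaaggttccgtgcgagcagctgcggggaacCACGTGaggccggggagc
The E-box begins 7 bases before the start of Atic, 148 before that of Dtymk and 18 before that of Nme1.

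The 5 members with this E-box had a median relative change at 12 h of -0.77 in Δ(177-191) cells (range -1.04 to -0.51). The 24 without it had -0.51 (range -1.57 to 0.51). In K298E cells the medians were -0.54 and -0.29, and in WT cells -0.08 and 0.10. The E-box medians of -0.77 and -0.08 are the values of Nme1, which is uncertain. That of -0.54 is the value of Tyms, which read low, and of Dtymk, whose K298E call depends on the probe set. Whether the 2 groups differ was not tested. Gart and Shmt1, with relative changes of -1.57 and -1.19, have no CACGTG in this window. The E2F letters TTTCGCGC, TTTGGCGC, TTTCCCGC and TTTGCCGC, on either strand, were found in 1 of the 29, Ppat (3.45%), and in 2.16% of all genes. The C/EBP letters TTGCNNAA, on either strand, was found in 0 of the 29 and in 10.8% of all genes. These are matches of letters in a short window and say nothing of binding. Ppat and Paics lie on opposite strands of chromosome 5 with annotated starts 276 bases apart. Their relative changes in Δ(177-191) cells were -0.85 and -0.51, and in K298E cells -0.35 and -0.12.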

How the data were processed

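The deposited values are microarray intensities, MAS5 signals on a linear scale in whole numbers, with a mean near 100 on each array after trimming 2% at both ends; MAS5 is named in the submitters' processing notes, and its version and settings are not given in the sources used here. The deposited intensities were used as they stand, as log2(signal + 3), which understates changes of low signals. Of 45101 probe sets, 64 controls were left out. Probe sets went into the tests when any of their 16 group means lay above the overall log2 median of 4.09, a signal of 14, which left 27167. Array annotation named 34945 probe sets with 1 symbol, 932 with several and 9160 with none; older names were replaced through a RefSeq table (GRCm38.p6) by gene identifier. The probe set with the highest mean stood for each of 12800 genes.

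Group means were fitted over the 48 arrays in limma 3.58.1 (R 4.3.3) with a trended variance and 32 residual degrees of freedom. Tests are two-sided, and p-values carry the Benjamini-Hochberg adjustment over all probe sets tested, with a threshold of 0.05. Errors of log2 changes are standard errors (SE). The steps were tested on simulated data. Same-numbered arrays were checked for pairing: 2 of 72 correlations of their deviations exceeded 0.1, and in 0 of the 24 pairs of groups did all of them, so the numbers were not taken to pair arrays.

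The members, gene lists and comparisons were chosen with earlier results of these data known. Any member may be named. Array values are given for the largest relative rise and fall past the threshold at 12 h in each class and for Ppat, Impdh2 (not analysed here), Cad, Rrm2, Tyms, Shmt1 and Odc1. Of the other pathway genes, the 2 largest rises and falls past the threshold per construct are named, and Myc, E2f1 and Pcna are given as values. Signals of Hprt and Cd3d were added after their values were seen, as were the other genes named beside these. Direct comparisons at 12 h and the fit without the Δ(177-191) line were added after seeing the data. Alternatives were other added constants, no filter, quantile normalization, median centring, array weights, the median over a gene's probe sets, the compared arrays alone, a replicate block and leaving out each array.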

Additional observations from a re-analysis of the deposited data

Results flagged for a closer look

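The mean change over 6, 9 and 12 h differed between WT and K298E cells for 20 of the 32 members by limma's test of the difference itself, with 19 higher and 1 lower in WT cells. Between WT and Δ(177-191) cells it differed for 23 members, all 23 higher in WT cells. Adss, lower in WT cells, lay just outside the threshold and passed under some alternatives. Both comparisons use the same WT arrays.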

How the results depend on the processing

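None of 17 log2 changes, those of the relative calls at 12 h of Gart, Ppat, Adss, Cad, Rrm2, Tk1, Shmt1, Odc1 and Srm, changed sign under the alternatives run; the K298E value of Nme1, not among them, did. Of 160 other settings for the 15 counts of members called, 141 lay within 1.5 times the reported count, as did 130 of 144 that left out an array. Of the settings for these 17 changes, 165 of 178 and, with an array left out, 195 of 204 kept their direction and side of the threshold. Centring each array on its median moved the median of all genes by over 0.1, from -0.03 to 0.14 for the relative change in WT cells, from -0.07 to 0.13 for the change in WT cells, from 0.01 to -0.14 for WT cells at 0 h, and from -0.04 to 0.10 and from -0.03 to 0.17 for WT minus K298E and WT minus Δ(177-191) cells. It left 0, 1 and 13 relative calls in WT, K298E and Δ(177-191) cells, 0 and 8 calls of change at 12 h in K298E and Δ(177-191) cells, 12 for WT minus K298E cells, 0, 0 and 3 at 0 h in WT, K298E and Δ(177-191) cells, and 1 and 1 at 12 h directly in WT and K298E cells; the cause was not tested. The change in K298E cells at 12 h had 1 call with no filter and 0 with the compared arrays alone. WT cells at 0 h had 1 call with the compared arrays alone, 4 with array weights and 4 with the median over probe sets. At 12 h directly, K298E cells had 3 calls with the compared arrays alone and 9 with array weights, and WT cells had 8 with quantile normalization. Leaving out 1 array gave 1 to 3 relative calls in WT cells, 0 to 1 calls of change in K298E cells, 1 to 3 in WT cells at 0 h, and 2 to 4 in WT and 3 to 6 in K298E cells at 12 h directly. With the replicate number as a block, relative calls were 3, 11 and 24 in WT, K298E and Δ(177-191) cells, and no count moved by over 1.5 times. Signals near the floor, as of Tyms, limit what can be seen.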
